A study of Danio rerio with 3 samples.

Results

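The notochord genes described here are the rows of the deposited expression table whose symbol is tbxta, noto, ntd5, emilin3a, foxa or foxa2. Of these 6 symbols, 5 are in the symbol column (tbxta, noto, ntd5, foxa and foxa2), out of 25961 genes in the table. The sixth, emilin3a, has no entry in that column. Its row was identified by its description and its Ensembl identifier, and it is reported beside the 5 and kept out of their counts.

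The data are RNA-seq of whole zebrafish embryos (Danio rerio, Tuebingen strain) at 24 hours post fertilization. There were 3 groups with 1 library each: a standard control morpholino at 3 ng, a morpholino against hnrnpaba at 3 ng, and the same hnrnpaba morpholino at 6 ng. Morpholinos are antisense oligomers that block translation or splicing of a chosen RNA, and hnrnpaba encodes an RNA-binding protein of the hnRNP family. All embryos were injected at the 1-cell stage, and each library was made from 30 pooled embryos. The control had the mass of the lower dose, so at 6 ng both the mass and the target of the morpholino differ from the control. No genotype other than the strain is given, and the knockdown is transient, in the whole embryo.

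The notochord is the rod of mesoderm under the neural tube that stiffens the embryo and gives the vertebrate body its axis. Its precursors come from the dorsal organizer and, later, from the tailbud, and in zebrafish Tbxta (Brachyury, the no tail gene) and Noto (the floating head gene) are both needed to make it. Mature notochord holds large vacuolated cells inside a sheath of collagen and laminin, and its Hedgehog signals pattern the floor plate and the muscle beside it. FoxA factors are expressed in notochord, floor plate and endoderm, so their RNA in a whole embryo is not specific to one of these tissues.

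Levels are given as FPKM, fragment counts corrected for gene length and for the depth of each library. FPKM is not corrected for differences in the make-up of the libraries. Its sum over all genes was 454561 in the control, 480820 at 3 ng and 466987 at 6 ng. Some calls change when the libraries are rescaled, as given below. A fold is one library's FPKM divided by that of the other, and its 95% exact interval, from the fragments counted, covers counting error only. Log2 differences were taken after adding 1 FPKM. Genes at 2-fold or more on that scale were called higher or lower, among the 16429 genes with a mean of at least 1 FPKM over the 3 libraries. With 1 library per group there is no replicate check and no test: every difference describes these libraries. In whole embryos, fewer or more cells of a type and less or more RNA per cell cannot be told apart.

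Library totals were between 13557637 and 17748074 fragments. hnrnpaba itself stood at 442 FPKM in the control, 459 at 3 ng and 342 at 6 ng, which does not check the labels, because a morpholino need not lower the RNA it binds. The 8 notochord markers read were tbxta, noto, ntd5, emilin3a, col8a1a, col9a2, col2a1a and shha. All 8 were measured and 0 of them were at 0 in any library. Since tbxta, noto, ntd5 and emilin3a are themselves described here, the markers give no separate check of the tissue. At 3 ng, 604 genes in all were higher and 361 lower than in the control; at 6 ng 1032 were higher and 745 lower. Correcting each difference by the median of genes of similar length turned the numbers at 6 ng into 785 higher and 910 lower, which took the share of higher genes from 58.1% to 46.3%.

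**Figure D1:**
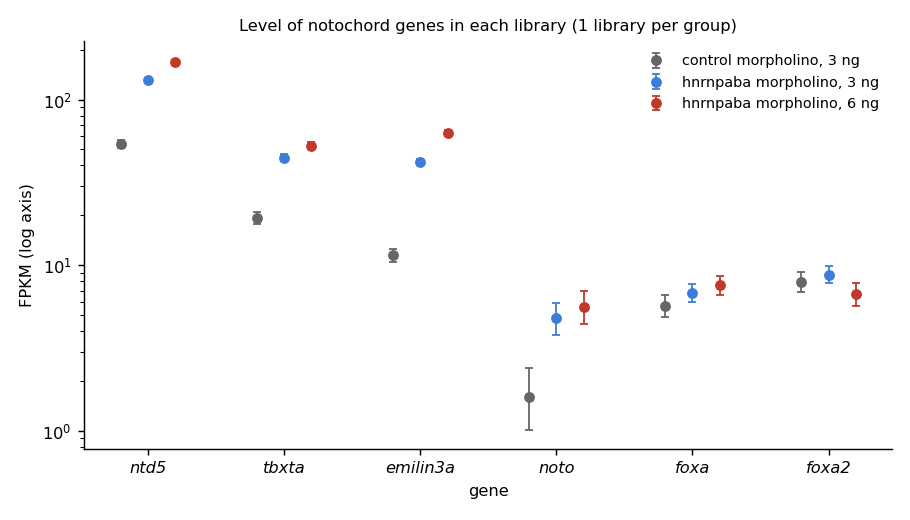
Level of each notochord gene in FPKM (log axis) in the control library (grey), the 3 ng hnrnpaba morpholino library (blue) and the 6 ng library (red). Points are single libraries and bars are 95% exact Poisson intervals of the fragment count. ntd5, tbxta, emilin3a and noto are lowest in the control and highest at 6 ng, with overlapping intervals of noto at the 2 doses, while foxa and foxa2 lie between 5.67 and 8.78 FPKM in every library.

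Of the 5 notochord genes, tbxta, noto and ntd5 were at least 2-fold higher than the control at both doses of hnrnpaba morpholino, and foxa and foxa2 were within 2-fold of it. emilin3a, the row found without its symbol, was higher at both doses by a larger fold than any of the 5, although the counting interval of noto overlapped its own. Among all measured genes 3.68% were higher at 3 ng and 6.28% at 6 ng, against 3 of 5 notochord genes at each dose. On the lower side 0 of the 5 stood past 2-fold at either dose, against 2.2% and 4.53% of all measured genes. The median log2 difference of the 5 was 1.16 at 3 ng and 1.35 at 6 ng, and that of all measured genes was 0.021 and 0.082. The genes were chosen with these differences already known, and both doses are set against the same control library. All 5 had more than 1 FPKM in the control, so none passed the filter through the morpholino libraries alone.

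tbxta (ENSDARG00000101576, chromosome 19, 14187540 to 14191592, minus strand, in the coordinates of the table, whose genome build the sources used here do not name) encodes the T-box factor that zebrafish need for notochord and tail. Its level was 19.3 FPKM in the control, 44.6 at 3 ng and 52.7 at 6 ng, from 625, 1753 and 1582 fragments. The control was the lowest of the 3 libraries and its counting interval, 17.8 to 20.9 FPKM, lay apart from those of the others. The fold over the control was 2.31 (2.103 to 2.53) at 3 ng and 2.72 (2.48 to 2.99) at 6 ng. Between the doses the fold was 1.18 (1.103 to 1.27), so most of the distance from the control was already present at 3 ng. tbxta ranked 427th of 16429 genes from the top by log2 difference at 3 ng and 448th at 6 ng.

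noto (ENSDARG00000021201, chromosome 13, 14976108 to 14978104, plus strand) encodes the homeodomain factor that keeps axial mesoderm on the notochord path and away from muscle. It had the lowest FPKM of the genes in every library, with 1.59 FPKM in the control, 4.78 at 3 ng and 5.58 at 6 ng. These levels rest on 23, 84 and 75 fragments, and the counting interval of the control, 1.01 to 2.39 FPKM, was the widest relative to its level. The control again stood below both morpholino libraries, with no overlap of the intervals. The fold was 3.00 (1.87 to 4.99) at 3 ng and 3.51 (2.17 to 5.87) at 6 ng. The interval of the fold between doses, 1.17 (0.845 to 1.62), included 1. Because noto is low, its call depends on the scale: with 5 FPKM added in place of 1 its log2 difference was 0.57 at 3 ng and 0.68 at 6 ng, under the 2-fold limit at both doses. The correction for gene length also left noto just short of the limit at 3 ng, at 0.98.

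ntd5 (ENSDARG00000040944, chromosome 16, 13568697 to 13595027, minus strand) is named in the table as ntl-dependent gene 5, after no tail, the earlier name of tbxta. It was the most abundant of the genes, at 53.9 FPKM in the control, 131 at 3 ng and 168 at 6 ng, from 1405, 4155 and 4080 fragments. Its share of the summed FPKM of the 5 genes was 60.9% in the control, 66.8% at 3 ng and 69.9% at 6 ng. ntd5 was 2.43-fold higher (2.29 to 2.58) at 3 ng and 3.12-fold higher (2.94 to 3.32) at 6 ng than in the control. At 6 ng it was 1.29-fold (1.23 to 1.34) its level at 3 ng.

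emilin3a (ENSDARG00000078052, chromosome 8, 22962690 to 22965916, minus strand) encodes a secreted EMILIN glycoprotein of the extracellular matrix, known in zebrafish for its part in the notochord sheath. Its level was 11.5 FPKM in the control, 41.9 at 3 ng and 62.5 at 6 ng, from 434, 1929 and 2197 fragments. The 3 libraries stood apart from each other, in the order control, 3 ng, 6 ng. The fold was 3.65 (3.29 to 4.06) at 3 ng and 5.45 (4.91 to 6.05) at 6 ng. Between the doses it was 1.49 (1.40 to 1.59). emilin3a ranked 148th of 16429 genes at 3 ng and 104th at 6 ng.

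foxa and foxa2 encode forkhead factors of the FoxA family. foxa (ENSDARG00000087094, chromosome 14, 33973146 to 33981544, minus strand) stood at 5.67 FPKM in the control, 6.84 at 3 ng and 7.56 at 6 ng, from 171, 251 and 212 fragments. The fold of foxa over the control was 1.21 at 3 ng, with an interval that included 1 (0.990 to 1.47), and 1.33 (1.09 to 1.64) at 6 ng. foxa2 (ENSDARG00000003411, chromosome 17, 42565998 to 42568498, minus strand), also known as axial and needed in the floor plate, stood at 7.93 FPKM in the control, 8.78 at 3 ng and 6.70 at 6 ng, from 205, 276 and 161 fragments. Its 6 ng library was the lowest and its 3 ng library the highest. The counting intervals, 6.88 to 9.09 FPKM in the control, 7.77 to 9.87 at 3 ng and 5.71 to 7.82 at 6 ng, all overlapped each other. The intervals of its fold over the control included 1 at both doses, at 1.11 (0.920 to 1.33) and 0.845 (0.683 to 1.04). Between the doses foxa2 stood at 0.764-fold (0.625 to 0.931), the one gene of the group that was lower at 6 ng than at 3 ng beyond its counting interval. An interval that includes 1 does not show equal levels, and for foxa2 at 6 ng it allows 0.683 to 1.04 times the control.

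**Figure D2:**
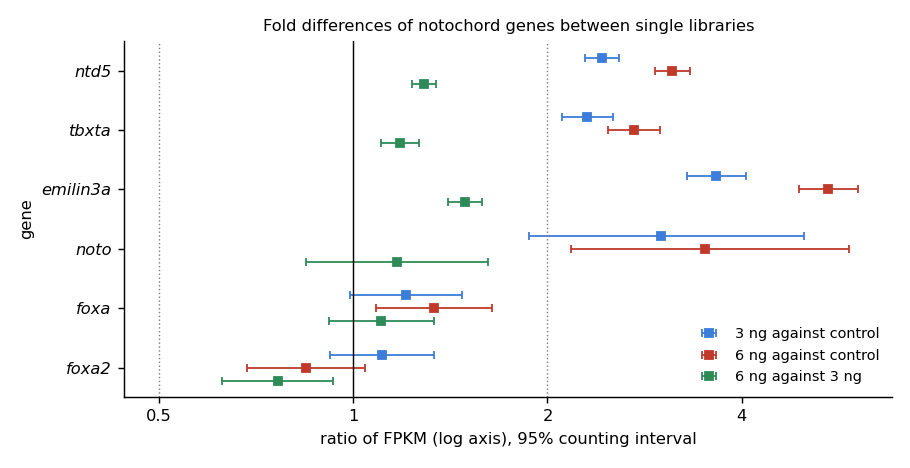
Ratio of FPKM between single libraries (log axis) for each notochord gene, with 95% exact counting intervals: 3 ng against control (blue), 6 ng against control (red) and 6 ng against 3 ng (green). Dotted lines mark 2-fold in each direction. The ratios to the control are 2.31 or more for ntd5, tbxta, emilin3a and noto and lie between 0.845 and 1.33 for foxa and foxa2.

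Set directly against each other, the libraries at 6 ng and 3 ng were within 2-fold of each other in all of these genes. Of the 5, 0 were higher and 0 lower past that limit, against 1.11% and 0.992% of all measured genes. Their log2 differences lay between -0.34 (foxa2) and 0.36 (ntd5), with a median of 0.19 beside 0.053 for all measured genes. The intervals of tbxta, ntd5 and emilin3a lay above 1, that of foxa2 below 1, and those of noto and foxa included 1.

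**Figure D3:**
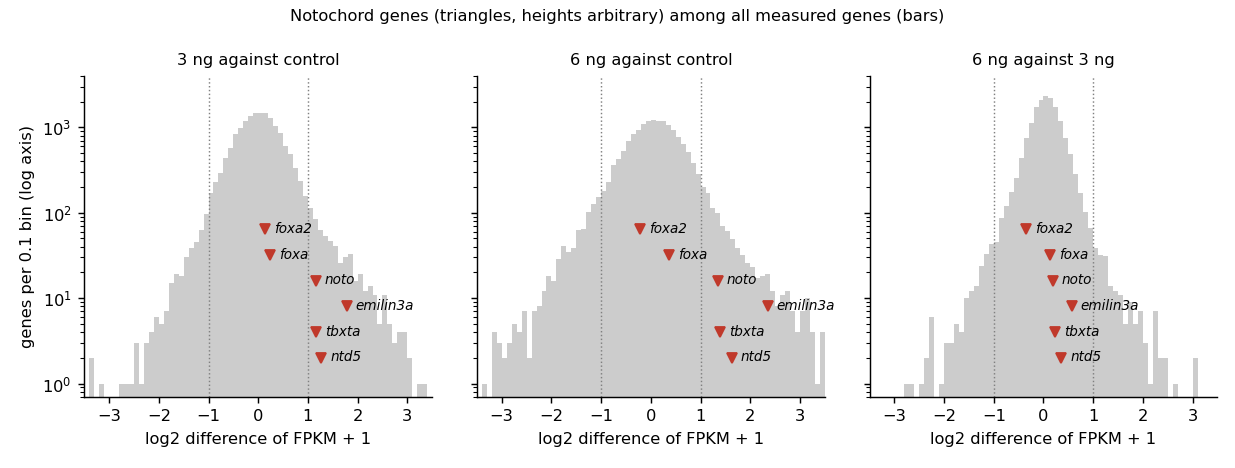
Distribution of log2 differences of FPKM + 1 over the 16429 measured genes (grey bars, log axis, genes past 3.5 in either direction outside the frame) in each comparison, with each notochord gene as a red triangle at its own difference; the height of a triangle has no meaning. Dotted lines mark 2-fold. ntd5, tbxta, noto and emilin3a lie right of the 2-fold line in both comparisons with the control and inside both lines at 6 ng against 3 ng.

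The order of levels changed between libraries because the genes differed in fold. In the control the order was ntd5, tbxta, emilin3a, foxa2, foxa and noto, and each gene exceeded the next beyond its counting interval. At 3 ng the interval of the ratio of tbxta to emilin3a, 1.06 (0.996 to 1.14), included 1, and the order of the other genes was that of the control. At 6 ng emilin3a exceeded tbxta by 1.19-fold (1.11 to 1.27), and foxa exceeded noto by 1.35-fold (1.04 to 1.79). foxa2 could not be told from either, with foxa at 1.13-fold foxa2 (0.914 to 1.39) and foxa2 at 1.201-fold noto (0.907 to 1.60). The ratio of tbxta to noto was 12.2 (8.03 to 19.3) in the control, 9.33 at 3 ng and 9.43 at 6 ng. The interval of the control ratio included the ratios at both doses, so no change in it was shown beyond counting error. The ratio of foxa2 to foxa was 1.40 (1.14 to 1.72) in the control, 1.28 (1.08 to 1.53) at 3 ng and 0.887 at 6 ng. Its control interval included the ratio at 3 ng but not that at 6 ng.

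The paralogs of these genes were read next, since reads of near-identical stretches can be shared between paralogs. tbxtb, the other zebrafish Brachyury gene, stood at 0.679 FPKM in the control, 2.13 at 3 ng and 2.15 at 6 ng. It was 3.13-fold (1.78 to 5.82) and 3.16-fold (1.76 to 5.97) the control level, from 16 fragments in the control, and on the log2 scale with 1 FPKM added it stayed short of 2-fold, at 0.90 and 0.91. Of 16 measured T-box genes, tbxta included, 3 were higher at 3 ng (tbxta, tbx6 and tbx6l) and 4 at 6 ng (tbx16 as well), with 0 lower at 3 ng and 1 lower, eomesa, at 6 ng. tbx16, tbx6 and tbx6l act in the paraxial mesoderm that forms the somites, and tbx6l and tbxtb passed the filter through their morpholino libraries. The medians of the family were -0.025 at 3 ng and 0.21 at 6 ng, beside 0.021 and 0.082 for all measured genes. Of all measured genes 3.68% and 6.28% were higher and 2.2% and 4.53% lower at these doses. The remaining measured T-box genes (tbx1, tbx2a, tbx2b, tbx3a, tbx5a, tbx15, tbx18, tbr1a, tbr1b and mgaa) stood within 2-fold on that scale at both doses, with tbx1, a gene of pharyngeal mesoderm and endoderm, farthest below the control (6.22, 2.90 and 3.34 FPKM). The calls of the low genes depend on the scale: with 5 FPKM added, tbx6l, tbx16 and eomesa were within 2-fold at both doses, while tbxta and tbx6 stayed past it.

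The other FoxA genes were within 2-fold of the control as well. foxa1 stood at 8.41, 10.5 and 10.4 FPKM in the order control, 3 ng, 6 ng, and foxa3, a gene of gut endoderm and the hatching gland, at 5.90, 6.79 and 7.02 FPKM. The highest fold among the 4 FoxA genes against the control was the 1.33 of foxa at 6 ng, and 0 of 4 passed 2-fold in either direction. Of all measured genes 3.68% and 6.28% were higher at 3 and 6 ng, and 2.2% and 4.53% lower.

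In the EMILIN and multimerin family, 6 genes of the list were measured and they went both ways, with 2 called higher and 1 lower at each dose. The shares over all measured genes were 3.68% and 6.28% higher at 3 and 6 ng, and 2.2% and 4.53% lower. The medians of the family were 0.12 and 0.62, beside 0.021 and 0.082 for all measured genes. Beside emilin3a, mmrn2b was higher, at 3.80, 23.5 and 34.7 FPKM, a fold of 6.19 (5.19 to 7.42) at 3 ng and 9.14 (7.68 to 10.9) at 6 ng. Multimerin 2 is known in mammals as a matrix protein of blood vessel walls. emilin1a was lower, at 7.91, 3.27 and 3.15 FPKM, a fold of 0.413 (0.350 to 0.486) at 3 ng and 0.399 (0.332 to 0.477) at 6 ng. That call depends on the scale: with 5 FPKM added in place of 1, 0 genes of the family were lower at either dose, while 2 stayed higher. emilin2b (17.4, 21.0 and 29.8 FPKM), emilin1b (11.5, 10.1 and 13.8 FPKM) and mmrn2a (2.64, 2.62 and 4.12 FPKM) stayed within 2-fold. A further row, named emilin3 in the table and singled out after its values were seen, is not part of these counts and medians. It stood at 8.48, 19.7 and 29.1 FPKM, a fold of 2.32 (2.105 to 2.57) at 3 ng and 3.43 (3.12 to 3.79) at 6 ng. Its log2 differences of 1.13 and 1.67 were past 2-fold at both doses.

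Genes of the notochord sheath, its matrix and the vacuole were within 2-fold of the control for the most part. Of 27 measured genes of this list, 1 was at least 2-fold higher at 3 ng and 2 at 6 ng, with 0 lower at either dose. The counts of higher genes are near the shares over all measured genes, 3.68% and 6.28%. On the lower side those shares were 2.2% and 4.53%. Other tissues of a whole embryo can express genes of this list, and their specificity to the notochord was not tested. The medians were 0.11 and 0.42, beside 0.021 and 0.082 for all measured genes. ctgfa, the connective tissue growth factor gene also called ccn2a, stood at 36.1, 82.1 and 92.4 FPKM, a fold of 2.28 (2.13 to 2.44) at 3 ng and 2.56 (2.39 to 2.75) at 6 ng. col8a1a, which encodes a sheath collagen needed for a straight notochord, stood at 101, 145 and 217 FPKM and passed 2-fold at 6 ng (2.14, 2.06 to 2.24). The main fibrillar collagen of the sheath, col2a1a, which floor plate and early cartilage express too, stayed within 2-fold at 410, 612 and 724 FPKM. Laminin lamc1 (63.5, 76.2 and 108 FPKM) and the coatomer gene copa (60.2, 58.3 and 71.0 FPKM), both needed for notochord differentiation, also stayed within it. Even so, 18 of the 27 lay above the control at 3 ng and 21 at 6 ng, against 51.9% and 56.0% of all measured genes. Summed over the list, levels were 1683, 2224 and 2657 FPKM. The sums are weighted to the most abundant genes, with col2a1a alone at 410, 612 and 724 FPKM. Within 2-fold, col9a1b was 1.47-fold and 1.60-fold the control and lama5 1.41-fold and 1.96-fold, while atp7a was 0.694-fold and 0.613-fold. The matrix genes nid1a (0.780-fold and 0.760-fold) and lama4 (0.830-fold and 0.711-fold) also stood below the control.

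Midline signals were read because floor plate shares foxa2 and Hedgehog genes with the notochord. Of 12 measured genes of the floor plate and midline list, 2 were higher at 3 ng (shhb and nog2) and 3 at 6 ng (foxj1a as well), while 0 and 1 were lower, and the medians were 0.35 and 0.62. Over all measured genes 3.68% and 6.28% were higher and 2.2% and 4.53% lower, with medians of 0.021 and 0.082. The BMP antagonist nog2 stood at 6.99, 17.1 and 19.96 FPKM, a fold of 2.45 (2.08 to 2.88) and 2.86 (2.43 to 3.37) in dose order. The Hedgehog ligand shhb stood at 2.72, 7.26 and 6.61 FPKM, and shha at 8.71, 15.9 and 15.2 FPKM, the latter within 2-fold. The ciliogenesis factor foxj1a stood at 4.51, 8.29 and 10.4 FPKM. nkx2.2b, a Hedgehog target in the ventral neural tube, was lower at 6 ng, at 4.32, 3.00 and 0.406 FPKM. The 5 floor plate markers (shha, foxj1a, spon1b, ntn1b and arxa) summed to 47.0 FPKM in the control, 54.3 at 3 ng and 56.3 at 6 ng, with 1 of 5 (foxj1a) past 2-fold at 6 ng and 0 at 3 ng. shha is a notochord marker too, and without it the sums were 38.3, 38.4 and 41.1 FPKM. arxa (14.5, 12.4 and 10.9 FPKM) and spon1b (13.5, 10.8 and 13.1 FPKM) stood below the control in both morpholino libraries. For spon1b at 6 ng the interval of the fold, 0.966 (0.870 to 1.07), included 1. The sums leave out ntn1a and spon1a, listed genes that also stood below the control. ntn1a was at 0.884-fold (0.807 to 0.968) at 3 ng and 0.740-fold (0.668 to 0.820) at 6 ng. spon1a, whose mean of 0.783 FPKM is under the filter, was at 0.359-fold (0.227 to 0.555) and 0.152-fold (0.0697 to 0.295). Of the 12 measured genes of the list, 8 lay above the control at each dose. Rescaling by the median ratio put shhb (0.96) and foxj1a (0.97) short of the limit at 6 ng and left 1 gene higher, nog2, and with 5 FPKM added 0 were higher at 3 ng and 1, nog2, at 6 ng. The gene called lower at 6 ng, nkx2.2b, was at -0.79 with 5 FPKM added.

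Tailbud genes were counted because tbxta and noto are themselves expressed in the tailbud. Of 21 measured tailbud genes, 9 were at least 2-fold higher at 3 ng and 13 at 6 ng, 0 were lower and 12 and 8 were within 2-fold, and the medians were 0.93 and 1.08. Over all measured genes 3.68% and 6.28% were higher and 2.2% and 4.53% lower, with medians of 0.021 and 0.082. With 5 FPKM added, 3 and 7 were higher. The 6 tailbud markers found in the table summed to 23.1 FPKM in the control, 59.2 at 3 ng and 71.1 at 6 ng, with 2 and 4 of them past 2-fold and 0 at 0 in any library. msgn1, which drives presomitic mesoderm differentiation, had the largest log2 difference of this list after adding 1 FPKM, at 3.03, 20.1 and 24.3 FPKM. tbx6 stood at 6.70, 25.7 and 42.1 FPKM and tbx16 at 1.26, 2.86 and 4.71 FPKM. The segmentation clock genes her1 (2.27, 8.80 and 15.2 FPKM) and her7 (0.505, 3.41 and 7.07 FPKM), the ventroposterior gene eve1 (2.08, 7.26 and 9.33 FPKM) and the posterior Hox genes hoxb13a (3.69, 13.3 and 14.3 FPKM) and hoxd13a (1.79, 5.71 and 4.63 FPKM) were higher at both doses. her7 passed the filter through its morpholino libraries. The part of tailbud cells in the levels of tbxta and noto was not tested, and the list shares tbx16 and tbx6 with the T-box family.

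Endoderm, which also expresses FoxA genes, was read by 9 markers, of which 7 were measured. The markers were sox17, sox32, foxa1, foxa3, gata5, gata6, hnf1ba, hnf4a and pdx1. One of the 7, hnf4a (0.716, 0.990 and 1.38 FPKM), passed the filter through its 6 ng library. The 9 summed to 27.9 FPKM in the control, 30.0 at 3 ng and 33.9 at 6 ng, with 0 of the 7 past 2-fold in either direction. sox32 was at 0 in the control and at 6 ng. These sums include foxa1 and foxa3, so they are not separate from the FoxA levels. At 3 ng gata5 (0.755-fold), gata6 (0.570-fold) and pdx1 (0.885-fold) stood below the control. hnf1ba (1.27-fold) and hnf4a (1.38-fold) stood above it. The wider endoderm list of 14 genes summed to 46.3, 38.998 and 41.8 FPKM in the same libraries, and over the 10 measured its median difference was -0.21 at the lower dose and -0.081 at the higher. Of these 10, 0 were higher and 1, the liver and pancreas factor onecut1, was lower at both doses (7.30, 1.70 and 1.47 FPKM). The lower sums of the list rest for the most part on onecut1, and whether its RNA is specific to endoderm was not tested. Over all measured genes 3.68% at 3 ng and 6.28% at 6 ng were higher and 2.2% and 4.53% lower, with medians of 0.021 and 0.082.

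**Figure D4:**
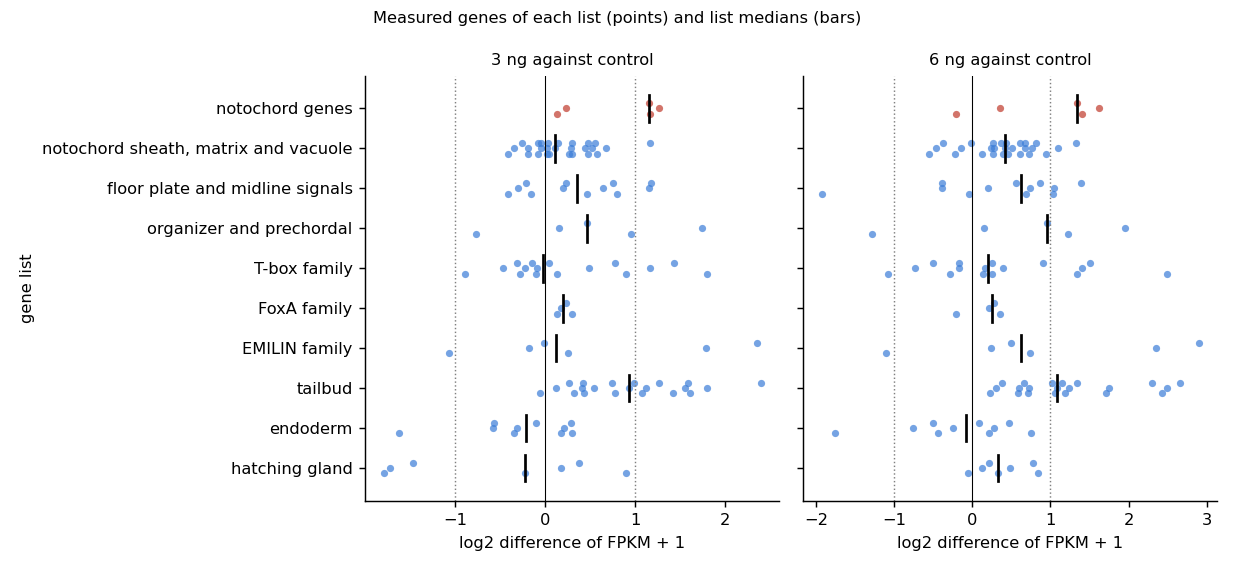
Log2 difference of FPKM + 1 from the control for the measured genes of each list at 3 ng (left) and 6 ng (right). Each point is a gene, black bars are list medians, the notochord genes found by symbol are red, and dotted lines mark 2-fold. The medians of the notochord genes, 1.16 and 1.35, and of the tailbud genes, 0.93 and 1.08, are the highest of the lists shown.

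The genes most like each notochord gene were sought by the distance between their log2 differences from the control at the 2 doses, among genes whose mean reached 5 FPKM. With 3 libraries this likeness rests on a pair of values that share a control, and many genes can be close by it. The nearest to tbxta were bmp2b, at 6.19, 15.0 and 17.9 FPKM (distance 0.0075), and nog2 (distance 0.017), and 18 genes lay within 0.1. The nearest to noto were ctgfa (distance 0.015) and nelfa (3.69, 9.40 and 11.1 FPKM), with 16 genes within 0.1. ntd5 was nearest to 2 genes with clone names, si:dkey-261j4.3 (2.52, 7.62 and 9.82 FPKM) and si:dkey-145p14.5 (8.79, 22.4 and 30.0 FPKM), with 7 within 0.1. emilin3a was nearest to sesn3 (9.36, 33.3 and 51.1 FPKM), the 1 gene within 0.1, followed by meox1 (14.0, 51.8 and 69.2 FPKM), a somite homeobox gene. For foxa 429 genes lay within 0.1 and for foxa2 114, with si:ch211-229n2.7 and blcap nearest to foxa and rplp0 and SNX2 nearest to foxa2.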

How the data were processed

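The authors deposited 1 table of FPKM values for 3 libraries. Per the labels' protocols, RNA was extracted with Trizol, sequenced on a BGISEQ-500 and mapped to the zebrafish genome and its genes. The sources used here name no aligner, counter, genome build or strand setting. The control column names neither morpholino nor dose and was taken as the control morpholino library, as no other control is in the series. In all, 0 value columns were unused.

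Fragment counts were recovered from the steps between low FPKM values: short genes whose model equals their span gave the library totals, and the shortest length giving whole fragments in all 3 libraries (tolerance at most 0.05 fragments) gave each gene's count, for 25956 genes. A length too short by a common factor would widen the intervals. Recovery and the 2-fold rule were tested on simulated data. The simulation of the rule held counting error only, so it does not cover differences between pools of embryos. The recovery test did not include lengths as long as those of the longest genes.

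Lists (9, with 126 of 135 symbols matched) and the notochord genes were chosen with earlier results of these data known. Named from each list were genes past 2-fold, at most 8 and farthest from the control first, and the paralogs of the notochord genes. Other named list genes, such as col2a1a, lamc1, copa and shha, were chosen after their values were seen. Python 3.11.15, numpy 2.4.6, pandas 2.3.3 and scipy 1.17.1 were used. Alternatives were other pseudocounts, filters, scalings and a 1.5-fold limit. No sequences are shown, as no sequence table was used here.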

Additional observations from a re-analysis of the deposited data

How the results depend on the processing

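Each group has 1 library, so differences between pools of embryos are not measured, and noto, with 23 fragments in the control, is the gene that depth limits most. No paired analysis was possible because each group has 1 library. The numbers of the 5 notochord genes past 2-fold were recomputed under 8 alternatives. At 3 ng the count of higher genes was 3 in 5 of them and 2 with 5 FPKM added, with a filter at 5 FPKM and with the gene length correction, where noto dropped out. At 6 ng it was 2 with 5 FPKM added and with the filter at 5 FPKM, and 3 otherwise. In the 5 alternatives that change its value, no notochord gene changed the sign of its difference in any comparison. tbxta stayed between 1.03 and 1.201 at 3 ng and between 1.25 and 1.44 at 6 ng, and ntd5 between 1.19 and 1.28 and between 1.47 and 1.64.

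Over all genes, adding 0.1 FPKM gave 1004 higher and 750 lower at 3 ng, 1615 and 1171 at 6 ng, and 426 and 365 at 6 ng against 3 ng, and adding 5 FPKM gave 137 and 79, 313 and 215, and 33 and 20. A filter at 5 FPKM gave 278 and 171, 540 and 391, and 62 and 75. The 1.5-fold limit gave 1904 and 1559, 2961 and 2011, and 849 and 622. The tailbud list, with 21 measured genes, had between 3 (5 FPKM added) and 13 (1.5-fold limit) genes higher at 3 ng over the alternatives. At 6 ng it had between 7 and 17 at the same settings. Of the 27 measured genes of the sheath list, 10 were higher at 6 ng at the 1.5-fold limit. Beside these, 137 and 313 of all 16429 measured genes were higher at 3 and 6 ng with 5 FPKM added. At the 1.5-fold limit 1904 and 2961 were.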

Other observations

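The list of the dorsal organizer, from which the first notochord precursors come, and of the prechordal plate holds 12 genes in the table, of which 5 had a mean of at least 1 FPKM. Among these, dkk1b, a Wnt antagonist, stood at 4.95 FPKM in the control, 18.8 at 3 ng and 22.1 at 6 ng. The Nodal co-receptor gene tdgf1 had levels of 4.56, 9.79 and 11.95 FPKM, and lhx1a, a LIM homeobox gene, of 6.54, 3.43 and 2.095 FPKM. Of the 5, 1 was higher and 0 lower at 3 ng, and 2 were higher and 1 lower at 6 ng. Their medians were 0.47 and 0.96, beside 0.021 and 0.082 for all measured genes, of which 3.68% and 6.28% were higher. hhex (3.87, 5.73 and 8.47 FPKM) and lft1 (2.88, 3.30 and 3.31 FPKM) were within 2-fold. Other tissues of a whole embryo can express these genes, and their specificity was not tested. The organizer genes gsc and ndr1 stayed under 0.4 FPKM in every library. The hatching gland derives from the prechordal plate. Of its 7 listed genes, 3 proteases were at least 2-fold lower at 3 ng and 0 genes at 6 ng: he1.1 stood at 197, 70.8 and 338 FPKM, he1.2 at 105, 29.7 and 115 FPKM, and ctslb at 52.1, 15.1 and 73.1 FPKM. Over all measured genes 2.2% were lower at 3 ng and 4.53% at 6 ng. At 6 ng against 3 ng the same 3 were higher, he1.1 by 4.78-fold, he1.2 by 3.86-fold and ctslb by 4.83-fold. In that comparison 1.11% of all measured genes were higher. klf17, a transcription factor of the hatching gland, stood above the control and within 2-fold on the log2 scale, at 7.76, 15.3 and 14.8 FPKM.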
